A study of Mus musculus with 7 samples.

Results

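The genes described here encode the filaments and tracks of the axon, and were chosen by symbol: the neurofilament subunits Nefl, Nefm, Nefh and Ina, tau (Mapt), the microtubule-associated proteins Map2, Map1a and Map1b, the neuronal tubulin Tubb3 and the tubulin-binding protein Stmn2. All 10 were found in the deposited table of 48526 genes, all 10 were among the 17896 genes tested, and the rule that selects them uses symbols and no measured value, though it was set with earlier results of these data known. The libraries are brain RNA from mice of 24 months, made to detect assemblies of α-synuclein through the protein Venus, per the series title and labels. All 7 libraries carry the V1S and SV2 constructs; the 4 on libraries are labelled glucose and the 3 off libraries are labelled Dox. The state of the constructs and doxycycline therefore change together and cannot be told apart. No source used here gives the brain region or the promoter that drives the constructs. Nor is it stated that the libraries are different animals, and the p-values then measure the spread between libraries, which may be technical.

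Neurofilaments are the intermediate filaments that fill large axons and set their calibre; the light subunit Nefl forms the core, Nefm and Nefh add long phosphorylated side arms, and α-internexin (Ina) joins the polymer in neurons of the central nervous system. Microtubules of the axon are bound by tau and Map1b, those of dendrites mainly by Map2 and Map1a, and Tubb3 is the β-tubulin isotype of neurons. Stmn2 binds free tubulin dimers and promotes microtubule turnover at growing and regenerating axon tips.

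Values are regularized log values (rlog), a log2 scale on which the authors scaled libraries to each other; counts were not used here, so depth per library is unknown. A difference is the mean of on minus the mean of off on this scale, with the standard error (SE) from limma, and adjusted p-values are Benjamini-Hochberg values over all 17896 genes, called under 0.05. Of all tested genes 466 (2.6%) were called, 146 higher (0.816%) and 320 lower (1.79%) in on, and in 15.2% the 2 groups of libraries were fully separate. An unadjusted p under 0.05 in limma was reached by 20.7% of all tested genes, the background for such counts below. Long genes were relatively high in on replicates 2, 3 and 4 (Spearman's rho across genes of 0.274 to 0.291 between transcript length and the deviation from the gene's mean), relatively low in the 3 off libraries (-0.316 to -0.233), and near neither in on replicate 1 (-0.0592). The genes described here run from 1868 to 11825 bases in their longest transcript, so values corrected for GC content and length, library by library, stand beside the results. The neuron markers Snap25 (16.30 to 16.52) and Rbfox3 (12.90 to 13.07) were high in all 7 libraries.

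Of the 10 genes 1 passed the test. Map1b was higher in on by 0.17 ± 0.04 (SE), a ratio of 1.12 with a 95% confidence interval of 1.06 to 1.19, and the other 9 genes did not pass, with differences between -0.14 (Tubb3) and 0.08 (Map2). With 2.6% of all tested genes called, 1 call among 10 genes is the smallest count above 0, and nothing is read from it for the genes as a group. The median difference of the 10 genes was 0.03, against 0.00 over all tested genes, with 6 positive and 4 negative. Of all 17896 tested genes 9223 were positive, the background for counts by sign here and below. The groups were fully separate in 2 of the 10, Map1b and Map2, both with all on libraries above all off libraries, as in 7.13% of all tested genes. In 0 of the 10 all on libraries lay below all off libraries, against 8.09% of all tested genes.

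**Figure D1:**
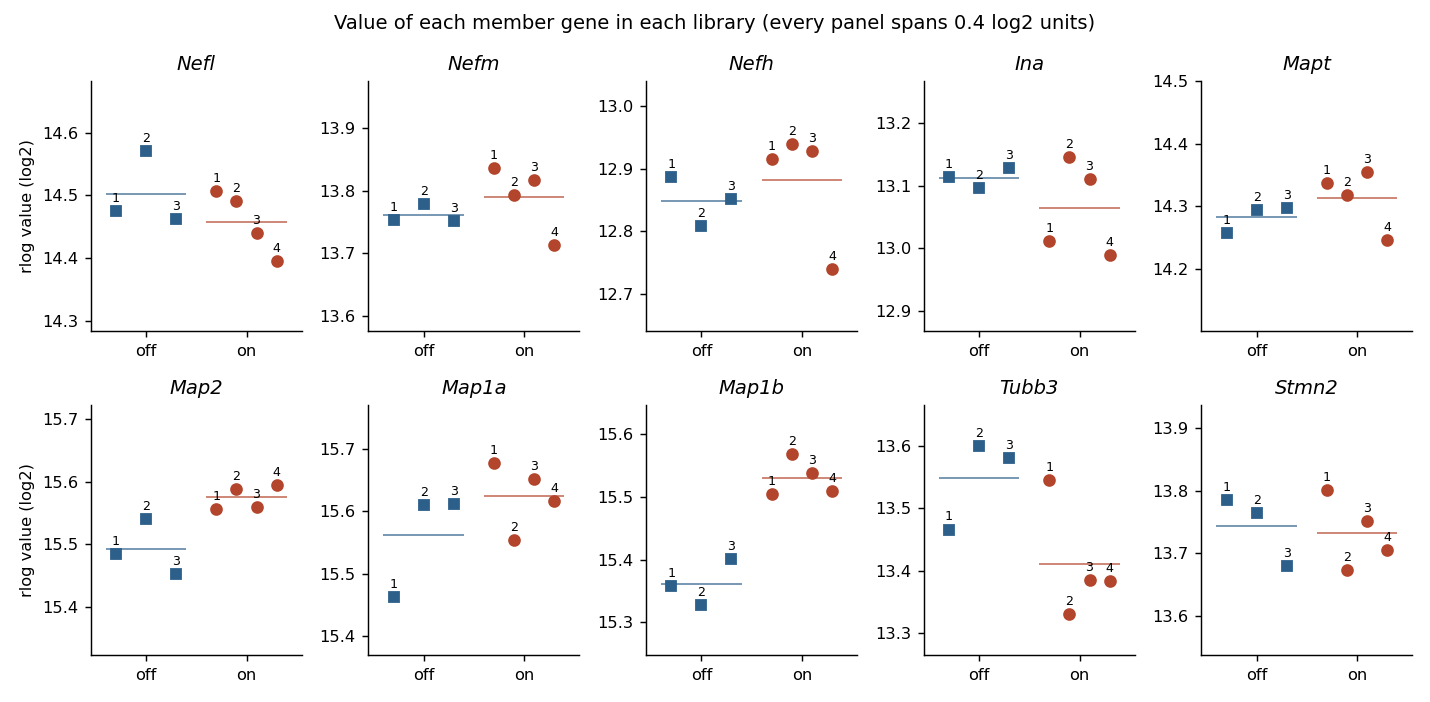
Value of each of the 10 genes in each library (rlog, log2), off libraries as squares and on libraries as circles with their replicate numbers, and lines at the group means; every panel spans the same 0.4 log2 units. Map1b and Map2 are the panels in which all on libraries lie above all off libraries.

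The starts of Map1b, Map2 and Tubb3 are shown because these genes had the largest differences of the 10, upward for Map1b and Map2 and downward for Tubb3. The bases are from RefSeq on GRCm38.p6, 5′ to 3′ on the strand of the gene, within the 250 bases before the RefSeq start and cut where the first annotated base of the gene begins. They are Map1b chr13:99516603-99516852 on the minus strand, Map2 chr1:66175079-66175272 on the plus strand and Tubb3 chr8:123411303-123411423 on the plus strand. Capitals mark the GC box GGGCGG, the TATA box TATAAA and the CCAAT box CCAAT on either strand.
Map1b: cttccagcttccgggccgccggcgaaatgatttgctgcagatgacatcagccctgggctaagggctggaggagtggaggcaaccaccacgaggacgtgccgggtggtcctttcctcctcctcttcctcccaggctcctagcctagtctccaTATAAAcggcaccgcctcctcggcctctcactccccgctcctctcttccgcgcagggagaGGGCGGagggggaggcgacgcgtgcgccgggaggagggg
Map2: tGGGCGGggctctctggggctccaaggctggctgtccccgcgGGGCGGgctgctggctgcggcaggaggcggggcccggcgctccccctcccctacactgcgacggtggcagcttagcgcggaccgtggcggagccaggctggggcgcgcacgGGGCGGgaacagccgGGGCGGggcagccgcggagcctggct
Tubb3: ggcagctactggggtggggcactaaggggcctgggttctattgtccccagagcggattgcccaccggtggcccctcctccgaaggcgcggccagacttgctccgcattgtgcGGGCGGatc
In the full 250 bases Map1b held 1 GC box and 1 TATA box, Map2 held 5 GC boxes, and Tubb3 held 2 GC boxes and 1 CCAAT box. Of 27025 promoters of the same length, 1 per gene, 32.9% held a GC box, 13.0% a TATA box and 34.5% a CCAAT box. Map1b had 19 CG dinucleotides, Map2 34 and Tubb3 21, against a median of 6 over all promoters. The other promoters found were those of Ina, with 2 GC boxes, and Map1a, with 4 GC boxes (2 of them overlapping) and 1 CCAAT box. These matches describe letters only. Nefl, Nefm, Nefh, Mapt and Stmn2 were not matched.

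Map1b lies on chromosome 13 from 99421446 to 99516540, minus strand (GRCm38). It encodes a long microtubule-associated protein of growing axons that is cleaved into a heavy and a light chain. It measured 15.50, 15.57, 15.54 and 15.51 in on replicates 1 to 4 and 15.36, 15.33 and 15.40 in off replicates 1 to 3. The lowest on library exceeded the highest off library by 0.10, and the spread within groups was small, with SDs of 0.030 (on, n = 4) and 0.037 (off, n = 3). The adjusted p from limma was 0.0479, close to the threshold. It passed without on replicate 1 (0.0111) and missed in the 6 fits that left out any other library (0.0859 to 0.203), with differences of 0.15 to 0.19 in all 7. The fit without on replicate 1 called 2917 of all tested genes, against 466 with all libraries. When tested genes were ranked by transcript length into 5 classes of equal size, Map1b was in the longest class, whose median difference was 0.06, and its value was above 92.2% of that class. After the GC and length correction the difference was 0.05 ± 0.03 (SE, adjusted p = 0.378), and on replicate 4 (15.45) fell just below off replicate 3 (15.46).

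Map1a, on chromosome 2 from 121289600 to 121310832, is the relative of Map1b that prevails in mature neurons, and it has nearly the same transcript length (11825 against 11808 bases). It measured 15.68, 15.55, 15.65 and 15.62 in on and 15.46, 15.61 and 15.61 in off. The groups overlapped, through on replicate 2, and off replicate 1 was the lowest library. The difference was 0.06 ± 0.05 (SE, adjusted p = 0.5), with a 95% interval of -0.04 to 0.17, and it was -0.02 after the correction. The difference between Map1b and Map1a within a library was -0.17, 0.01, -0.11 and -0.11 in on and -0.11, -0.28 and -0.21 in off. These values do not depend on how libraries are scaled. Their on minus off difference was 0.10 and the groups overlapped (two-sided exact permutation p = 0.229, adjusted over 6 gene pairs 0.412).

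Map2, on chromosome 1 from 66175273 to 66442583, encodes the main microtubule-associated protein of dendrites. It measured 15.56, 15.59, 15.56 and 15.59 in on and 15.49, 15.54 and 15.45 in off. All on libraries lay above all off libraries, with a gap of 0.02 between on replicate 1 and off replicate 2. The difference of 0.08 ± 0.04 (SE) did not pass (adjusted p = 0.28), and 31.9% of all tested genes had a larger absolute difference. After the correction it was 0.03 ± 0.03 (SE) and the groups overlapped.

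Mapt, on chromosome 11 from 104231390 to 104332090, encodes tau, which stabilizes axonal microtubules and is deposited in neurofibrillary tangles in several dementias. It measured 14.34, 14.32, 14.35 and 14.25 in on and 14.26, 14.29 and 14.30 in off. On replicate 4 was the lowest of all 7 libraries and the other on libraries the highest. The difference was 0.03 ± 0.04 (SE, adjusted p = 0.702), with an interval for the ratio of 0.964 to 1.08. The table holds 1 value per gene, so the splice forms of tau, from 12 annotated transcripts, were not separated. The difference between Mapt and Map2 within a library averaged -1.26 ± 0.07 (SD, n = 4) in on and -1.21 ± 0.05 (SD, n = 3) in off, and the groups overlapped (exact permutation p = 0.343).

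**Figure D2:**
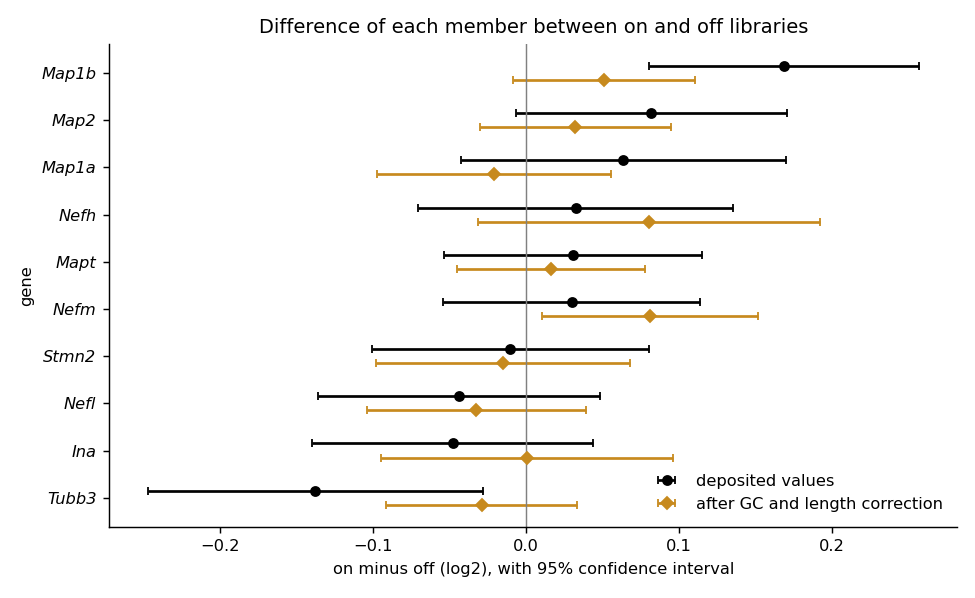
On minus off difference of each gene (log2) with its 95% confidence interval from limma, for the deposited values (circles) and after the GC and length correction (diamonds). Before the correction the intervals of Map1b (0.08 to 0.26) and Tubb3 (-0.25 to -0.03) lie clear of 0, and after it that of Nefm does (0.01 to 0.15). Such an interval is an unadjusted p under 0.05 in limma, which 20.7% of all tested genes reached before the correction. The share after the correction was not computed.

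The neurofilament subunits showed small differences of both signs, and 0 of 4 passed in limma (0 of 4 at an unadjusted p under 0.05). Nefl, on chromosome 14 from 68083863 to 68089095, measured 14.51, 14.49, 14.44 and 14.40 in on and 14.47, 14.57 and 14.46 in off. The highest library was off replicate 2 and the lowest on replicate 4, and the groups overlapped. Its difference was -0.04 ± 0.04 (SE, adjusted p = 0.602), an interval for the ratio of 0.910 to 1.03. Nefm, on the same chromosome from 68082590 to 68124846 on the opposite strand, measured 13.84, 13.79, 13.82 and 13.71 in on and 13.75, 13.78 and 13.75 in off. On replicate 4 lay below all off libraries and the other on libraries above them. Its difference was 0.03 ± 0.04 (SE, adjusted p = 0.711).

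Nefh, the heavy subunit, on chromosome 11 from 4938754 to 4948064, measured 12.92, 12.94, 12.93 and 12.74 in on and 12.89, 12.81 and 12.85 in off. The same pattern held, with on replicate 4 below all off libraries and the other on libraries above them. Its difference was 0.03 ± 0.05 (SE, adjusted p = 0.748). Ina, on chromosome 19 from 47014698 to 47025327, measured 13.01, 13.15, 13.11 and 12.99 in on and 13.11, 13.10 and 13.13 in off. On replicates 1 and 4 were the low libraries, while the off libraries lay within 0.03 of each other. Its difference was -0.05 ± 0.04 (SE, adjusted p = 0.558), and 0.00 after the correction.

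The mix of subunits was compared within each library, where scaling cancels. Nefm relative to Nefl was -0.67, -0.70, -0.62 and -0.68 in on and -0.72, -0.79 and -0.71 in off. All on libraries lay above all off libraries, by a gap of 0.01, and the difference was 0.07. The two-sided exact permutation p was 0.0571, the smallest that 4 against 3 libraries allow, and 0.342 adjusted over 6 gene pairs. In the GC-corrected values the difference was 0.11. The exons of Nefl and Nefm overlap on opposite strands over 1108 bases, 32.8% of the exon bases of Nefl and 19.2% of those of Nefm; no source used here gives the strand setting of the authors' counting, so reads from this stretch could fall to either gene. Nefh relative to Nefl differed by 0.08 between groups (exact permutation p = 0.343) and Ina relative to Nefl by 0.00 (p = 0.971), both with overlapping groups. Ina also overlaps Nt5c2 on the opposite strand over 456 exon bases (14.1%).

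Expressed as shares of the summed level per kilobase of the 4 subunits, Nefl made up 44.3% ± 0.71 (SD, n = 4) in on and 45.1% ± 1.1 (SD, n = 3) in off. Nefm made up 25.6% ± 0.42 and 24.8% ± 0.16, Ina 17.6% ± 0.69 and 18.0% ± 0.49, and Nefh 12.6% ± 0.37 and 12.1% ± 0.51, in on and off. The order Nefl, Nefm, Ina, Nefh was the same in each of the 7 libraries. The widest range of a share over the 7 libraries was 3.09 percentage points, that of Nefl. The shares and this order rest on the longest transcript as length. With the union of all annotated exons as length, the mean level of Nefm (11.25) lay below that of Ina (11.39).

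Tubb3, on chromosome 8 from 123411424 to 123422015, had the widest range of the 10 genes. It measured 13.55, 13.33, 13.39 and 13.38 in on and 13.47, 13.60 and 13.58 in off. On replicate 1 sat among the off libraries, and the other on libraries lay below all of them. The difference of -0.14 ± 0.05 (SE) had an unadjusted p of 0.0174 and did not pass (adjusted p = 0.151). Without on replicate 1 it was -0.18 (adjusted p = 0.00837), in a fit that called 2917 of all tested genes against 466 with all libraries. After the GC and length correction it was -0.03 ± 0.03 (SE, adjusted p = 0.647). With the correction and without on replicate 1 it was -0.05 (adjusted p = 0.255 in limma). Tubb3 is the shortest of the 10 (1868 bases), and its difference was above that of 7.9% of the genes in its length class. Tubulin genes share long stretches of coding sequence, and how the authors treated reads that match several of them is not given, so its value is uncertain to that extent.

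Stmn2, on chromosome 3 from 8509360 to 8561606, measured 13.80, 13.67, 13.75 and 13.70 in on and 13.79, 13.77 and 13.68 in off. The groups covered the same range, and the difference was -0.01 ± 0.04 (SE, adjusted p = 0.918), an interval for the ratio of 0.933 to 1.06. Of all tested genes, 89.0% had a larger absolute difference. Stmn2 relative to Tubb3 was 0.32 ± 0.05 (SD, n = 4) in on and 0.19 ± 0.11 (SD, n = 3) in off, with off replicate 1 (0.32) inside the on range of 0.26 to 0.37 (exact permutation p = 0.114). In the GC-corrected values that difference was 0.01.

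**Figure D3:**
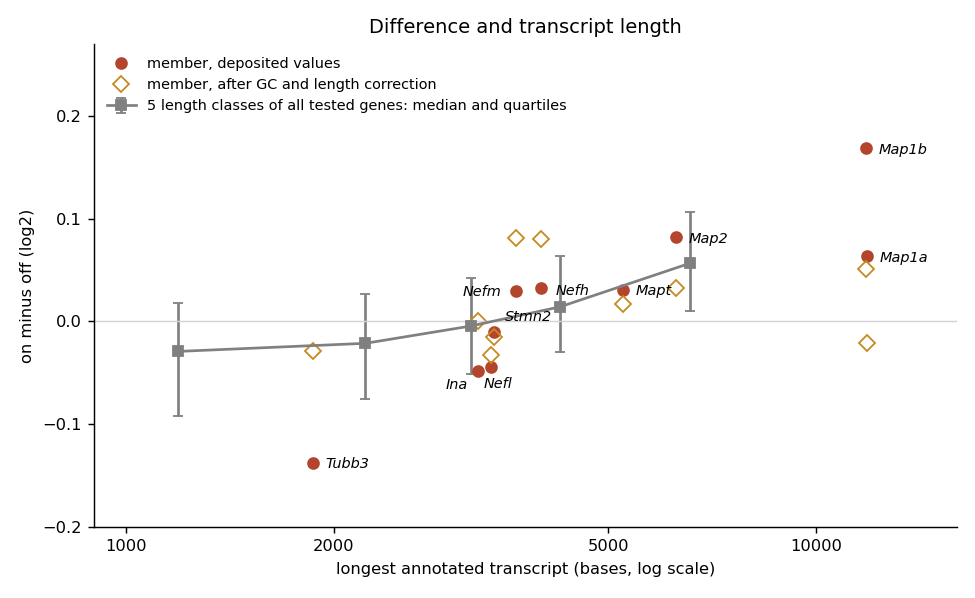
On minus off difference (log2) against the longest annotated transcript (log scale) for the 10 genes, before (filled circles) and after (open diamonds) the GC and length correction; squares give the median and quartiles of all tested genes in 5 classes of length, at the class's median length. The class medians run from -0.03 to 0.06, and Map1b (0.17) and Tubb3 (-0.14) lie beyond the quartiles of their classes.

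The order of the 10 differences followed transcript length in part. The 3 longest transcripts, those of Map1a, Map1b and Map2, had the 3 most positive differences, and the shortest, that of Tubb3, had the most negative. Over all tested genes the median difference ran from -0.03 in the shortest class to 0.06 in the longest. After the correction the 10 differences ran from -0.03 (Nefl) to 0.08 (Nefm and Nefh). Of the 10 genes 0 passed in limma, where 0.583% of all genes were called by adjusted p. The 95% interval of 1 gene, Nefm, left out 0, and the share of all genes with such an interval was not computed. Whether the length trend is technical or a change in long and short genes cannot be told apart with these libraries.

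Compared per kilobase of the longest transcript, the levels of the 10 genes (rlog value minus log2 of the length) ran from 12.89 ± 0.05 (SD, n = 7) for Map2 to 10.87 ± 0.07 (SD, n = 7) for Nefh. Map2, Nefl (12.72) and Tubb3 (12.57) led in this order in each of the 7 libraries. Next came Map1a (12.03), Stmn2 (11.97), Mapt (11.91), Nefm (11.90) and Map1b (11.90), neighbours that did not keep their order: Map1a exceeded Stmn2 in 6 of 7 libraries, Stmn2 exceeded Mapt in 6, Mapt exceeded Nefm in 5 and Nefm exceeded Map1b in 4. Ina (11.39) and Nefh were the lowest in each library. On the rlog scale without division by length, each of the 10 lay above at least 94.8% of tested genes. With the union of all annotated exons as length, Map2 (11.50) dropped to the fourth place and Nefl (12.72) led, so the order depends on the transcript assumed.

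**Figure D4:**
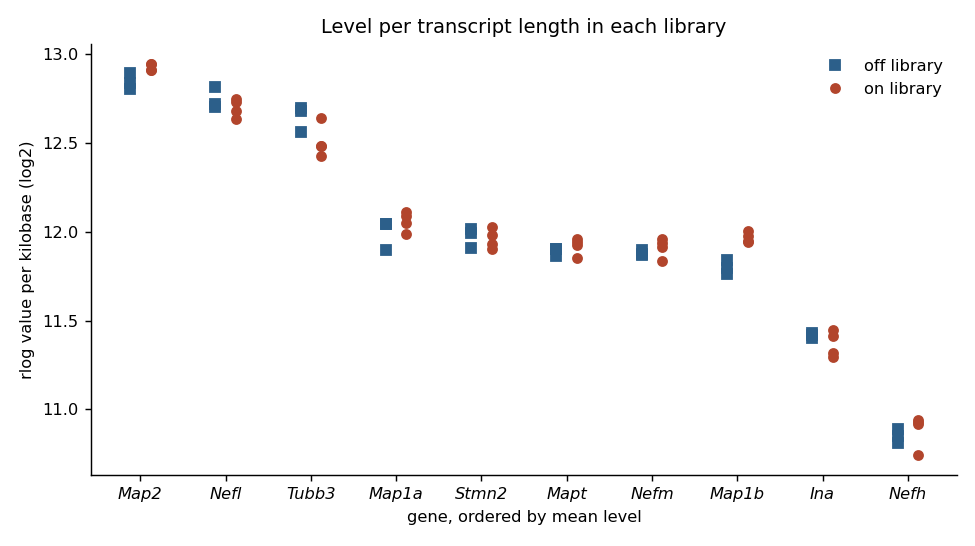
Level per kilobase (rlog value minus log2 of the longest transcript in kilobases) of each gene in each off library (squares) and on library (circles), ordered by the mean over 7 libraries. Nefh (10.87) and Ina (11.39) are lowest and Map2 (12.89) highest.

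The genes differed in how much they varied between libraries of a group. The pooled SD within groups was 0.032 for Map2 and 0.033 for Map1b, below the median of 0.053 over 2114 genes with a mean of 12 or more, and 0.085 for Tubb3, 0.077 for Nefh and 0.068 for Map1a. On replicate 4 was the lowest of all 7 libraries for Nefl, Nefm, Nefh, Ina and Mapt, and the highest for Map2. Averaged over the 10 genes, the deviation from the gene mean was lowest in on replicate 4 (-0.04), and it was 0.01 to 0.04 for on replicates 1 to 3 and -0.03 to 0.01 for off replicates 1 to 3.

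For the 3 genes of widest range, the tested genes with the most similar profile were found by the root mean square difference of deviations from the gene mean over the 7 libraries. Nearest to Tubb3 (range 0.27) were Pex14 (0.011), Taldo1 (0.013) and Gnb2 (0.016), where the median over all genes was 0.11. Nearest to Map1b (range 0.24) were Mycbp2 (0.013), Fam120c (0.018) and Kcna1 (0.021). Of these Mycbp2, which encodes a large ubiquitin ligase of axons, was itself called (0.18, adjusted p = 0.0282 in limma). Nearest to Map1a (range 0.21) were Eef1a2 (0.017), Prep (0.018) and Lrp4 (0.019). With 7 libraries such likeness describes the profiles only.

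Of the other genes of the axonal cytoskeleton, 10 of 174 in 10 lists passed, 2 higher and 8 lower in on. The background for this count and for each list below is 2.6% called, 0.816% upward and 1.79% downward. Whether the lists exceed that background was not tested. Their median difference was -0.03, where all tested genes had 0.00, and it was -0.01 in the corrected values. Tubulins fell in 1 of 15 tested genes, with a median of -0.07 and 13 negative values. The gene that passed, Tuba1b, an α-tubulin expressed in many cell types, measured 11.81, 11.69, 11.70 and 11.56 in on and 11.96, 11.94 and 11.95 in off, a difference of -0.26 ± 0.05 (SE, adjusted p = 0.0163). Tuba1a, the main α-tubulin of neurons, differed by -0.11 ± 0.04 (SE, adjusted p = 0.183). After the correction the tubulin median was -0.03, and Tuba1b was -0.17 (adjusted p = 0.0741). The stathmins Stmn1, Stmn3 and Stmn4 did not pass (0 of 3 in limma, 1 at an unadjusted p under 0.05); Stmn3 was closest, at -0.18 ± 0.05 (SE, adjusted p = 0.0656).

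Kinases and phosphatases that act on tau fell in 2 of 29 genes, and the other 27 did not pass, with a median of -0.03. Both belong to 1 kinase: Cdk5, which phosphorylates tau and neurofilament side arms, and Cdk5r1, which encodes its activator p35. Cdk5r1 measured 12.77, 12.72, 12.69 and 12.74 in on and 12.93, 13.03 and 12.95 in off. The groups lay 0.16 apart and did not overlap, and the difference was -0.24 ± 0.04 (SE, adjusted p = 0.00854). Cdk5 measured 11.57, 11.47, 11.49 and 11.47 in on and 11.69, 11.67 and 11.70 in off, a difference of -0.18 ± 0.04 (SE, adjusted p = 0.025). After the GC and length correction Cdk5r1 passed at -0.22 ± 0.03 (SE, adjusted p = 0.0101), the 1 gene of the 174 that did, and Cdk5 did not at -0.11 ± 0.03 (SE, adjusted p = 0.091). Cdk5r2, the gene of the other activator, p39, differed by -0.16 ± 0.05 (SE, adjusted p = 0.0696) and by -0.01 after the correction. Cdk5r1 missed the threshold without on replicate 3 (0.0535) or off replicate 2 (0.0722), and Cdk5 passed only without on replicate 1 (0.0015).

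Other microtubule-associated proteins reached an unadjusted p under 0.05 in limma in 11 of 27 genes, against 20.7% of all tested genes. They gave 0 calls in the 27, with a median of 0.03. The largest of them by p were Map1s, the short relative of Map1a and Map1b, at -0.19 ± 0.05 (SE, adjusted p = 0.0609) and Map6d1 at -0.15 ± 0.04 (SE, adjusted p = 0.0723). Other intermediate filament proteins gave 0 calls in 9 genes (1 at an unadjusted p under 0.05), with a median of -0.01. Nes, the filament of precursor and endothelial cells, differed by 0.33 ± 0.09 (SE, adjusted p = 0.0747) and Synm by 0.10 ± 0.05 (SE, adjusted p = 0.264). Prph, the filament of peripheral and some brainstem neurons, was at 7.69 in on and 7.70 in off.

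Among enzymes that modify or sever tubulin, 1 of 27 passed: Svbp, the partner of the vasohibins that remove the terminal tyrosine of α-tubulin, at -0.33 ± 0.06 (SE, adjusted p = 0.0159). Ttll4, a glutamylase, differed by 0.22 ± 0.07 (SE, adjusted p = 0.0956). Of 21 tubulin folding factors 1 passed, Arl2, at -0.24 ± 0.05 (SE, adjusted p = 0.0302), and Tbcb differed by -0.16 ± 0.05 (SE, adjusted p = 0.0795). After the correction Svbp was -0.22 (adjusted p = 0.0584) and Arl2 -0.16 (adjusted p = 0.0761), and neither passed. The dynein list held 1 gene higher and 1 lower of 24: Dync1h1, the heavy chain of the retrograde motor, at 0.19 ± 0.05 (SE, adjusted p = 0.0409) and the light chain Dynll1 at -0.20 ± 0.04 (SE, adjusted p = 0.0282). Their longest transcripts are 14342 and 2242 bases, and after the correction the differences were 0.08 and -0.16 and did not pass.

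Of the proteins that link or remove neurofilaments, 1 of 4 passed: Dst, a cytoskeletal linker, at 0.34 ± 0.06 (SE, adjusted p = 0.0162), and 0.16 after the correction (adjusted p = 0.179). Growth cone and axon maintenance genes fell in 2 of 15, Marcksl1 by 0.23 ± 0.05 (SE, adjusted p = 0.024) and Basp1 by 0.17 ± 0.04 (SE, adjusted p = 0.0352). After the correction neither passed, at -0.11 (adjusted p = 0.162) and -0.07 (adjusted p = 0.415). With each library left out in turn, Dst and Tuba1b passed in 4 of 7 fits, Svbp and Dynll1 in 3, Arl2 and Basp1 in 2 and Marcksl1 and Dync1h1 in 1.

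**Figure D5:**
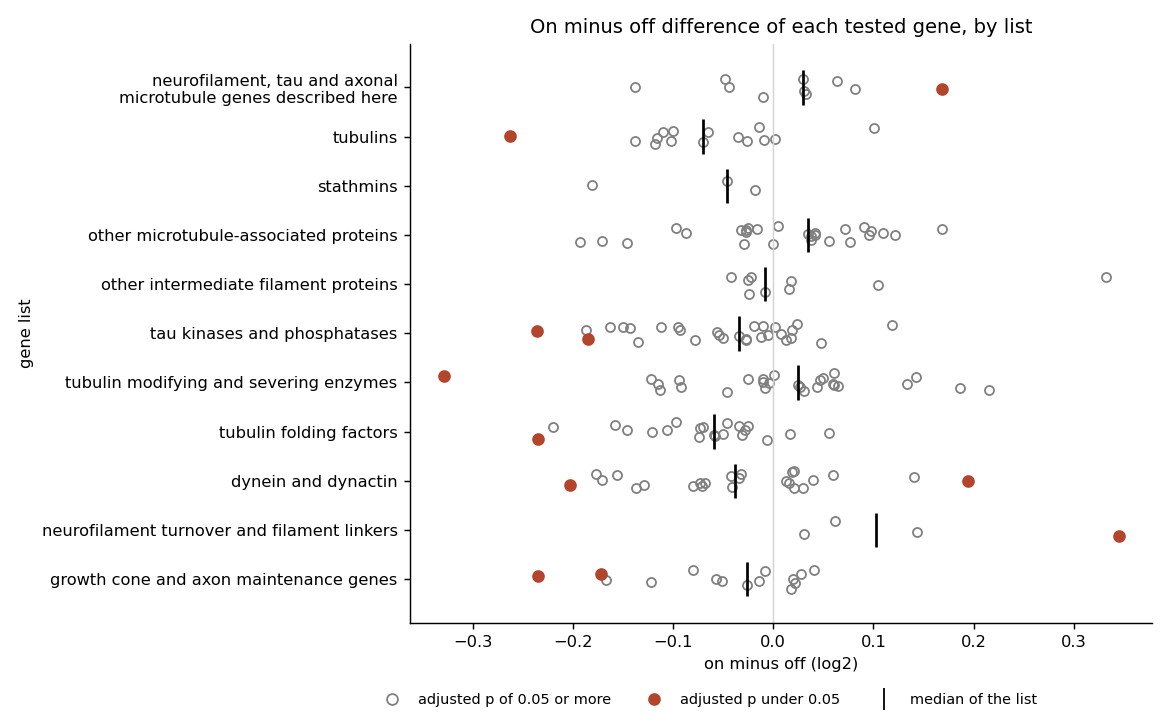
On minus off difference (log2) of each tested gene in the 10 genes described here and in 10 lists of related genes; filled points passed the limma test at an adjusted p under 0.05, and bars mark list medians. Map1b is the filled point in the top row, and 8 of the 10 filled points in the other rows lie below 0.

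Neuron markers gave 0 calls of 9 in limma (1 at an unadjusted p under 0.05), with a median of -0.05, and a mean deviation of 0.01 for on replicate 1, -0.04 to -0.02 for on replicates 2 to 4 and 0.00 to 0.08 for the off group. Uchl1 differed by -0.18 ± 0.05 (SE, adjusted p = 0.0918) and Rbfox3 by -0.08 ± 0.04 (SE, adjusted p = 0.254). In the corrected values the neuron list had a median of -0.01 and 0 calls. No change in neurons is read from these markers, and bulk tissue could not tell fewer neurons from less RNA per neuron. Oligodendrocyte precursor markers fell in 2 of 4, Olig1 by 0.28 ± 0.05 (SE, adjusted p = 0.0165) and Olig2 by 0.24 ± 0.06 (SE, adjusted p = 0.0493), while Pdgfra (0.02) and Cspg4 (0.01) did not pass. After the GC and length correction 0 of the 4 passed in limma, with Olig1 at -0.15 (adjusted p = 0.083) and Olig2 at -0.18 (adjusted p = 0.155). The mean deviation of the endothelial and mural list varied within both groups, at -0.21 in on replicate 1 and 0.08 to 0.14 in on replicates 2 to 4, while off replicate 2 (-0.20) lay below off replicates 1 (0.05) and 3 (0.04). Markers of astrocytes (0 of 7, 0 at an unadjusted p under 0.05) and oligodendrocytes (0 of 7, 0) gave no call in limma. Nor did those of microglia (0 of 7, 2 at an unadjusted p under 0.05) or endothelial and mural cells (0 of 6, 1). Choroid plexus markers (0 of 4, 0) and those of peripheral and brainstem neurons with large axons (0 of 5, 0) gave none either. List medians were -0.01 for astrocytes (3 of 7 positive), -0.05 for oligodendrocytes (2 of 7) and -0.08 for microglia (1 of 7). Medians were 0.11 for vessels (4 of 6), 0.00 for choroid plexus (2 of 4) and -0.01 for the neurons with large axons (2 of 5). Differences of the markers of smallest p were 0.10 (Slc1a2) and 0.05 (Slc1a3) for astrocytes, -0.09 (Mog) and 0.08 (Mal) for oligodendrocytes, and -0.15 (Tmem119) for microglia. They were 0.24 (Flt1) and -0.16 (Cldn5) for vessels and -0.05 (Ttr) and 0.03 (Clic6) for choroid plexus. For the peripheral and brainstem neurons with large axons they were -0.08 (Isl1) and 0.04 (Slc5a7).

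Nuclear and intronic RNAs were positive in all 8 tested genes, where 9223 of all 17896 tested genes were positive. In limma 2 of the 8 were called higher, against 0.816% of all tested genes. These were Malat1 (0.61 ± 0.11, SE, adjusted p = 0.0159) and Snhg14 (0.29 ± 0.05, SE, adjusted p = 0.0115). Whether this list reflects RNA quality was not tested. After the correction Malat1 passed (0.54, adjusted p = 0.0389) and Snhg14 did not (0.15, adjusted p = 0.0846). The mean deviation of these 8 RNAs was 0.16 to 0.22 for on replicates 2 to 4, -0.13 for on replicate 1 and -0.28 to -0.06 for the off group. By this mean on replicate 1 lay with the off group, as it did for Tubb3. For Malat1 itself on replicate 1 (15.21) was the lowest on library but above all off libraries (14.99 to 15.06). Map1b in on replicate 1 (15.50) was the lowest of the on libraries and above all off libraries. The mitochondrial gene mt-Nd6, for which all on libraries (11.72 to 11.80) lay above all off libraries (10.87 to 11.19), put on replicate 1 (11.72) with the on group. The part of these RNAs in the differences of Map1b and Tubb3 was not tested.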

How the data were processed

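Brain RNA of 7 libraries (4 on, 3 off) was prepared with a Qiagen miRNeasy kit and an Illumina TruSeq Stranded mRNA kit, per the labels. The values deposited by the authors are regularized logarithms on the log2 scale, 1 column per library; depth is unknown. Per the submitters' processing notes, the tools were DESeq2 1.16.1, STAR 2.5.2, BWA 0.7.14-r1136, cutadapt 1.9.1 and Subread 1.5.3 on GRCm38, with no role named; annotation, strand setting and filters were not found in the sources used here. No 2 libraries held identical values.

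Names, positions, transcript lengths and GC were read from GENCODE M21 (GRCm38), which held 48144 of 48526 genes. Genes with a mean of 3 or more entered 1 limma fit (version 3.58.1, R 4.3.3; group term, intensity trend, two-sided, Benjamini-Hochberg over all genes). Pairs of genes were compared with exact permutation tests over libraries. The GC and length correction removed from each library a smooth trend (mgcv 1.9.3) in 3 classes of mean value, for 17831 genes (99.6%). Named were the 10 genes, genes called and the 2 of smallest p in each list, and the 3 nearest profiles; some genes that this rule names are not reported here. The genes, lists and alternatives were chosen with earlier results of these data known. Methods were run on simulated data with independent noise for each gene and library. Genes that deviate together within a library were not simulated, so the run does not show how the methods perform on these data.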

Additional observations from a re-analysis of the deposited data

Results flagged for a closer look

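A gap test asked, in the 4 on libraries, whether the highest or lowest library lay far from the others. Of 60 values 5 were singled out, where chance gives about 3.0 (1 in 20). On replicate 4 was low in Nefh, at 12.74 against 12.92 to 12.94 in the other on libraries. On replicate 1 lay apart in the other 4. Its Arl2 value was 10.61 against 10.42 to 10.44, and its Flt1 value 10.93 against 11.43 to 11.52. Spearman's rho of its deviations with transcript length was -0.0592 (0.274 to 0.291 in on replicates 2 to 4), and on the first principal component (47.7% of the variance) it lay at -4.10 against 7.19 to 9.15. Without on replicate 4 the difference of Nefh was 0.08 ± 0.04 (SE, adjusted p = 0.391 in limma), against 0.03 ± 0.05 with it.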

How the results depend on the processing

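Map1b passed in 6 of 19 alternatives and kept its sign in all 19 (0.04 to 0.19, adjusted p from limma 0.0111 to 0.619). The alternatives are not independent of the main fit or of each other. The looser threshold reads the main fit, so Map1b had to pass there. Changes of filter, intensity trend or prior leave each difference as it was, so no sign could turn. The replicate block gave the same difference as leaving out on replicate 4. Tubb3 kept its sign in all 19 and passed with array weights (-0.16, adjusted p = 0.0286) and when on replicate 1 was left out (-0.18). The other 8 genes passed in none. Called were 1 of the 10 genes, 10 of the 174 related genes and 466 of all genes. Unfiltered, these counts were 0, 0 and 7. Variances with no intensity trend gave 0, 6 and 237, array weights 2, 36 and 2215, and the looser threshold of 0.1 gave 1, 29 and 1182. The GC and length correction gave 0, 1 and 104 (79 of the 104 among the 466), and 0, 27 and 1783 when on replicate 1 was left out too. Quantile normalization left 0 of the 10, with an adjusted p of 0.0553 for Map1b. Fits that left out 1 library gave 0 to 2 of the 10, 0 to 48 of the 174 and 43 (no off replicate 2) to 2917 (no on replicate 1) of all genes. A block for the replicate number gave 0, 0 and 30, and 0, 0 and 2 together with the correction. Same-numbered libraries deviated together by r of -0.228, -0.1 and 0.0176, and libraries of unlike number by -0.195 to 0.297. Whether the number stands for a shared origin was not tested. Signs turned in 3 genes that passed in no fit and in 1 pair. Ina was 0.0006 after the correction, 0.021 with the block added and 0.030 with on replicate 1 left out; Map1a was -0.021, -0.019 and -0.044 in the same fits. Stmn2 ran from -0.043 to 0.011 over the fits that left out 1 library. The difference of Ina and Nefl was 0.033 after the correction and -0.047 to 0.030 with 1 library left out. The causes were not tested. With 7 libraries and shrunken log values of unknown depth, small changes could be missed.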
